A study of Homo sapiens with 8 samples.

Results

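Imprinted genes are expressed mainly from the copy inherited from one parent. DNA methylation laid down in the germline at imprinting control regions marks one parental copy, and the KRAB zinc finger protein ZFP57 with its partner TRIM28 protects the methylated copy in the embryo, while the insulator protein CTCF binds several of these regions when they are unmethylated. Many imprinted genes act in growth, and they lie in clusters under a common control region. The 10 genes followed here were H19, IGF2, KCNQ1OT1, DLK1, MEG3, PEG3, PEG10, MEST, SNRPN and GNAS, and their members are the ATAC-seq peak regions that overlap the gene span with 20 kb on either side. Peaks of all 8 lists were merged into regions where they overlapped, which gave 112 regions at the 10 loci of 285853 on chromosomes 1 to 22 and X. No region fell into more than 1 window.

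RUES2, a line of human embryonic stem cells, was taken through a directed cardiac differentiation, with no genetic change named in the labels. Cells labelled ESC (day 0) had received the Wnt activator CHIR-99021 in Essential 8 medium since the day before collection. Cells labelled MES (mesoderm, day 2) had received a further dose of CHIR-99021 in RPMI with albumin and ascorbic acid. CP cells (cardiac progenitors, day 5) had then been given the Wnt inhibitor Xav-939, and CM cells (cardiomyocytes, day 14) had gone on without inhibitor and, from day 7, with B27. Each stage had 2 libraries, all from 1 line. ATAC-seq cuts DNA with a transposase where chromatin is accessible, and it reads both parental copies together, so that no value below belongs to 1 allele. Fold is the pileup of cut sites at a peak over its local background, and −log10 q is the strength of the call. In such bulk samples, fewer cells with an accessible site and less access per cell cannot be told apart.

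The lists held between 55873 peaks (CM replicate 2) and 156282 peaks (MES replicate 2), and between 28 and 65 of those lay at the 10 loci, which is 0.0404% to 0.0539% of a list. At the lowest background of a list, the weakest peak had a fold between 2.63 and 3.17, so a site without a peak at such a background had a fold under about that level. Stage markers at their promoters set the stages apart only in part. NANOG, a pluripotency factor, had a peak in the 4 ESC and MES libraries (folds 4.58 to 5.83) and in none of CP or CM. MYH6, a cardiac myosin, had one in CP replicate 2 and both CM libraries (4.18, 4.28 and 5.19). NPPA, another cardiomyocyte gene, had a peak in CM replicate 1 only. Others did not follow their stage. The fold of the pluripotency gene SOX2 was 4.42 and 4.90 in ESC and 6.01 and 6.19 in CM, and that of the sarcomere gene ACTN2 was 9.22 and 9.61 in ESC and 6.99 and 7.26 in CM. TNNT2, a cardiac troponin gene, and the 4 mesoderm markers had a peak in every library. The 4 CP markers, ISL1, HAND1, GATA4 and NKX2-5, had one too, except GATA4 in ESC replicate 1. Their summed folds were 11.65 and 16.43 at ESC, 17.60 and 17.78 at MES, 18.64 and 21.68 at CP, and 20.02 and 20.90 at CM. The CP markers thus did not set CP apart from CM. The pluripotency gene POU5F1 lacked a peak in CM replicate 2 only, and DPPA4, another, in CM replicate 1 only. The CM marker MYL7 lacked one in both ESC libraries. Of 8 markers of endoderm, neural, endothelial and stromal cells, 5 to 7 had a promoter peak in each library, with summed folds of 25.2 and 28.6 at ESC, 30.9 and 28.2 at MES, 24.8 and 31.5 at CP, and 32.0 and 24.4 at CM. The endothelial gene CDH5 had none, and the part of other cell types in the results was not tested.

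Between no peak at all and 26 regions, the loci differed widely. H19, the lncRNA that shares a control region with IGF2, and PEG3, a zinc finger gene, had no peak in any of the 8 lists. SNRPN had 26 regions, MEG3 21, GNAS 19, IGF2 16, KCNQ1OT1 12, DLK1 7, PEG10 6 and MEST 5. Per 100 kb of window that was 23.1 at IGF2, 17.3 at MEG3, 17.04 at GNAS and 13.3 at both SNRPN and DLK1, against 8.41 at KCNQ1OT1 and 8.29 at MEST.

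**Figure D1:**
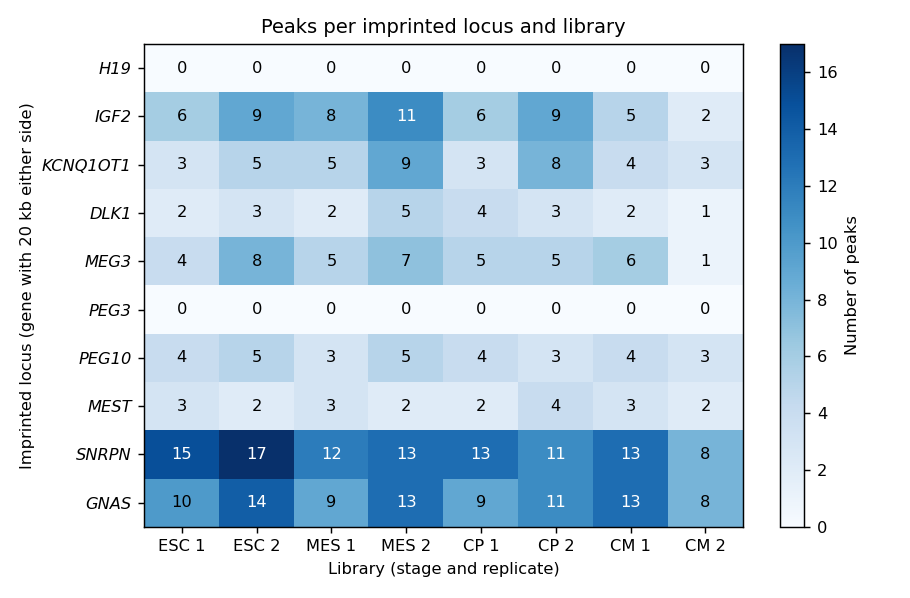
Number of peaks (colour and printed number) in each library (columns, stage and replicate) at each imprinted locus (rows, gene with 20 kb either side). The H19 and PEG3 rows are at 0 throughout, SNRPN has between 8 and 17 peaks a library, and CM replicate 2, with the shortest list, has the fewest or joint fewest at each of the 8 other loci.

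The empty stretch around H19 was chr11:1944017-2071294, 127 kb, the ninth longest without a peak on chromosome 11. It holds the start of the ribosomal protein gene MRPL23 as well. Around PEG3 the stretch was chr19:56672091-57099232, 427 kb, the fourth longest on chromosome 19, with the starts of ZIM2 and PEG3 inside it. Peak numbers within all 8 lists ran without a gap, and 646 of 19970 protein-coding genes with the same flanks (3.23%) also had no peak. Whether reads could be placed uniquely over these stretches was not tested.

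Presence of a peak at the 8 other loci was read against all regions. A peak in all 8 libraries was found at 18 of the 112 regions (16.1%), against a background of 9.84%. Peaks in a single library made up 47 of the 112 (42.0%), against 40.7%. Of the 18, 6 lay at SNRPN, 4 at GNAS, 3 at PEG10, 2 at MEST and 1 each at IGF2, KCNQ1OT1 and DLK1, and MEG3 had none. Of the 18, 10 overlapped the 1 kb on either side of an annotated start of their gene, and the other 8 did not. Of all 112, 28 overlapped it. The background takes in every region of the genome, near genes or not, and no background of gene windows was drawn.

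A region was called present at a stage when both libraries had a peak. By that rule 15 of 112 (13.4%) belonged to a single stage, against 19.7% of all regions. ESC alone had 5, at DLK1, MEG3, PEG10 and SNRPN, where the background is 7.47%. MES alone had 5 (background 7.00%), CP 2 (background 2.84%) and CM 3 (background 2.36%). Only 4 of the 15 were also missing from every library of the other stages, and without ESC replicate 1 the count was 30, without MES replicate 1 it was 27 and without CM replicate 2 it was 25, since the stage then rests on its other library. Peaks in both ESC libraries and neither CM library were held by 13 regions (11.6%, background 13.5%), and the opposite by 3 (2.68%, background 3.15%).

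IGF2 encodes a fetal growth factor and is transcribed from several promoters. Its region in all 8 libraries, IGF2_8 (chr11:2136760-2138011; regions are numbered along the chromosome within each locus), covers an annotated start and overlaps a UTR exon. The region also overlaps the span of the readthrough gene INS-IGF2. The fold of IGF2_8 was 3.18 and 3.25 at ESC, 3.72 and 3.31 at MES, 3.23 and 4.53 at CP, and 3.65 and 4.92 at CM. Both CM values were above both ESC values, also after centring, the step before the tests that gives the log2 folds of every library the same median. The neighbouring promoter region IGF2_10, which also lies within 1 kb of a start of IGF2-AS, had low folds, from pileups of 36 to 54. Its folds were 2.65 and 2.1 at ESC, 2.18 and 2.20 at MES, and 2.44 and 2.73 at CP, with no CM peak. The promoter regions IGF2_9 and IGF2_12 had a peak in MES replicate 2 alone (2.29 and 3.83). Downstream of the gene, IGF2_1 had folds of 4.97, 5.25, 4.55 and 5.17 at ESC and MES and 5.28 in CP replicate 2, and no CM peak. IGF2_4 was in 7 libraries, at 3.07 to 6.97, and missing in ESC replicate 2. IGF2_3 passed in both libraries of MES alone (3.78 and 3.85), though ESC, CP and CM had a peak each.

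KCNQ1OT1 is a long noncoding RNA that starts inside KCNQ1, a potassium channel gene, and runs antisense to it, and its promoter lies in the control region of that cluster. The regions described here also overlap the span of KCNQ1. The promoter region KCNQ1OT1_11 had a peak in every library. Its fold was 4.88 and 5.42 at ESC, 4.73 and 6.50 at MES, 6.16 and 6.86 at CP, and 4.85 and 5.65 at CM, so that CP lay above ESC and CM before centring, while the centred log2 folds of CP (2.71 and 2.53) and CM (2.52 and 2.67) overlapped. Beside it, KCNQ1OT1_12 had a peak in 5 libraries, at 2.79 to 4.12, and counted as present at MES alone. Inside the transcript, KCNQ1OT1_10 had its highest folds in ESC, 6.22 and 5.98. It measured 4.67 and 3.94 at MES, 3.71 and 3.03 at CP, 2.52 in CM replicate 1, and had no peak in CM replicate 2. The stages did not overlap in these folds before centring. The log2 shifts that centring removes were 0.184 in MES replicate 2, -0.0897 in CP replicate 1, 0.248 in CP replicate 2 and -0.245 in CM replicate 1. With these removed, MES replicate 2 lay under CP replicate 1, and CM replicate 1 lay above CP replicate 2. KCNQ1OT1_7 went the other way, with no peak in ESC, MES or CP replicate 1, 10.1 in CP replicate 2, and 5.14 and 6.62 at CM, from pileups of 70, 39 and 35. KCNQ1OT1_8 was in the 6 libraries of the first 3 stages, at 2.92 to 4.53, and in neither CM library.

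The summit window of KCNQ1OT1_7 is shown because its peaks were confined to CP replicate 2 and CM. It is the 200 bases chr11:2675631-2675830 of the GRCh38 plus strand, and it holds none of the letters searched, so that nothing stands in capitals.
KCNQ1OT1_7: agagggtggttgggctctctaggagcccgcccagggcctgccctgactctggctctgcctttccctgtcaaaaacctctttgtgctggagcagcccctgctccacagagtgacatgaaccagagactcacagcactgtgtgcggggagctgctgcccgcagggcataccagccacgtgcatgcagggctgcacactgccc

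DLK1, a membrane protein related to Notch ligands, and MEG3, a long noncoding RNA, share the imprinted cluster on chromosome 14 and are expressed from opposite copies. DLK1_1 (chr14:100708349-100709535), 16170 bp from the nearest annotated DLK1 start, was the cluster's only region in all 8 libraries. Its fold was 5.07 and 5.37 at ESC, 5.70 and 5.40 at MES, 4.15 and 5.07 at CP, and 2.80 and 3.27 at CM. Both CM values lay under all 6 others, also after centring. The DLK1 promoter region, DLK1_4, had only low folds, 2.80 in ESC replicate 2, 3.32 in MES replicate 2 and 2.57 in CP replicate 1. The pileups behind them were 44, 36 and 31. DLK1_5, in a UTR exon of the gene, had 4.67 and 5.67 at ESC and 4.96 in MES replicate 2, and nothing later. DLK1_2 was present at MES alone (3.87 and 3.17), with a further peak in CP replicate 2 (4.15).

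MEG3 had no peak at its RefSeq starts in any library. The nearest region to the first of them, MEG3_8 (chr14:100824019-100824533), lay 1575 bp upstream. Peaks there were found in ESC, 5.84 and 6.02, and in CP, 4.27 and 4.40, and in neither MES nor CM library. Further along, MEG3_17 (chr14:100851151-100851673), an exonic region 717 bp from MIR770, had the highest folds of the locus. They were 8.10 and 7.38 at ESC, 4.92 and 7.65 at MES, 4.89 and 5.89 at CP and 3.72 in CM replicate 1, with no peak in CM replicate 2. The 5 regions near annotated MEG3 starts had a peak in at most 3 libraries. The strongest of them, MEG3_10, had 3.66 and 5.68 at MES and 5.13 in CP replicate 2, and MEG3_9, MEG3_11, MEG3_12 and MEG3_13 had 1 peak each, with folds of 2.60 to 3.20. Other single-stage regions of the locus were MEG3_4 for ESC (4.41 and 4.07), MEG3_7 for MES (3.03 and 4.56) and MEG3_14 for CM (2.70 and 3.23).

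The summit windows of MEG3_8 and MEG3_17 are shown because both hold a CTCF core and their peaks differed between stages. They are chr14:100824236-100824435 and chr14:100851206-100851405 on the GRCh38 plus strand. In MEG3_8, capitals mark a CTCF core (GGNGGCAG) and 2 copies of CCAAT, the core letters of the promoter factor NF-Y, all of them on the other strand, so that they appear as their reverse complements. In MEG3_17, they mark a ZFP57 hexamer (TGCCGC) on the other strand and a CTCF core as spelled. CCAAT was searched after the windows had been seen.
MEG3_8: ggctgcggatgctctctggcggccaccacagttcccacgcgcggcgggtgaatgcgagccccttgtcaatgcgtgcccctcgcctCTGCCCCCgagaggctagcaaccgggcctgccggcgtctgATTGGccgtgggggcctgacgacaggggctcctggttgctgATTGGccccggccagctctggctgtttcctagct
MEG3_17: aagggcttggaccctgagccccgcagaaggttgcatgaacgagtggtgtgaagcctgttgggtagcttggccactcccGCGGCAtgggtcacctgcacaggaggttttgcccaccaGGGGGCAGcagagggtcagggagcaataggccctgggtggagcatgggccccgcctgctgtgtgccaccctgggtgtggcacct

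PEG10, a gene derived from a retrotransposon, and its neighbour SGCE start back to back. The region over both starts, PEG10_3 (chr7:94655647-94656654), had folds of 4.58 and 5.10 at ESC, 4.18 and 4.94 at MES, 4.80 and 4.39 at CP, and 3.96 and 4.46 at CM. Both CM values lay under both ESC values before centring, and the centred log2 folds of ESC (2.20 and 2.32) and CM (2.23 and 2.33) overlapped. The intronic regions next to it were stronger in every library. PEG10_4 (chr7:94657606-94658241) ranged from 6.33 to 8.05 over the 8 libraries, and PEG10_5 (chr7:94658326-94658711) from 5.81 to 6.64. Their calls were among the strongest of all imprinted regions, with −log10 q of 53.1 to 89.5 at PEG10_4 and 41.5 to 62.8 at PEG10_5. PEG10_1, upstream, passed in ESC (4.07 and 5.16) and in MES replicate 2 (3.24) and in no CP or CM library.

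MEST, an enzyme gene of the alpha/beta hydrolase family, had 2 promoter regions in all 8 libraries, over different annotated starts. At MEST_3 (chr7:130486029-130487086) the fold was 7.70 and 7.72 at ESC, 8.93 and 9.70 at MES, 7.12 and 8.20 at CP, and 8.81 and 7.08 at CM. MES was the highest stage before centring, and on the centred log2 scale CM replicate 1 (3.38) was above both MES libraries (3.11 and 3.09). At MEST_5 (chr7:130491900-130492564), which also lies within 1 kb of a start of the antisense gene MESTIT1, the fold was lower, 3.37 to 5.14. Between them MEST_4 had 1 peak, in ESC replicate 1 (3.43).

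SNRPN codes for a splicing protein and is transcribed from several starts, of which the one shared with SNURF lies at the imprinting centre of the Prader-Willi region. The highest fold at any imprinted locus was at its most upstream start, SNRPN_2 (chr15:24823341-24823913), inside PWRN1 as well. It was 14.1 and 15.6 at ESC, 16.1 and 17.6 at MES, 14.0 and 17.2 at CP, and 13.4 and 12.0 at CM. CM lay under the other stages before centring, and on the centred log2 scale its values, 3.99 and 3.75, spanned those of all other libraries. The next promoter region, SNRPN_8 (chr15:24856279-24856776), had 8.37 to 11.7, and SNRPN_23 (chr15:24954748-24955155), at the SNURF start, had 4.84 and 5.13 at ESC, 5.55 and 6.08 at MES, 4.75 and 5.48 at CP, and 4.30 and 3.97 at CM. SNRPN_24, beside it, had a peak in CM replicate 1 only (3.37). SNRPN_7, in an intron, was in all 8 libraries as well, at 4.92 in ESC replicate 1 and 6.27 to 8.46 in the others.

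Peaks inside the gene differed more between stages. SNRPN_25 (chr15:24956143-24956960), in an intron 1138 bp from the nearest GENCODE start and over another start in RefSeq, had 4.06 and 4.92 at ESC, 6.57 and 7.21 at MES, 6.67 and 8.73 at CP, and 6.14 and 7.28 at CM. Both ESC values were below the 6 others, also after centring. SNRPN_15 (chr15:24898730-24899181), deep in an intron, had 9.90 and 9.57 at ESC, 5.65 and 6.42 at MES, and no peak in CP or CM. The pileups behind those peaks were 59, 65, 27 and 42. SNRPN_17, further along the same intronic stretch, was seen in ESC only, at 5.72 and 5.38. SNRPN_22 had peaks in ESC (6.43 and 4.99), MES (3.37 and 4.05) and CP replicate 1 (3.69) and then no more. Of the remaining single-stage regions, SNRPN_3 counted for ESC (3.39 and 5.16, with peaks also in MES replicate 1 and CP replicate 1) and SNRPN_5 for CP (3.85 and 3.48, with one in CM replicate 1).

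**Figure D2:**
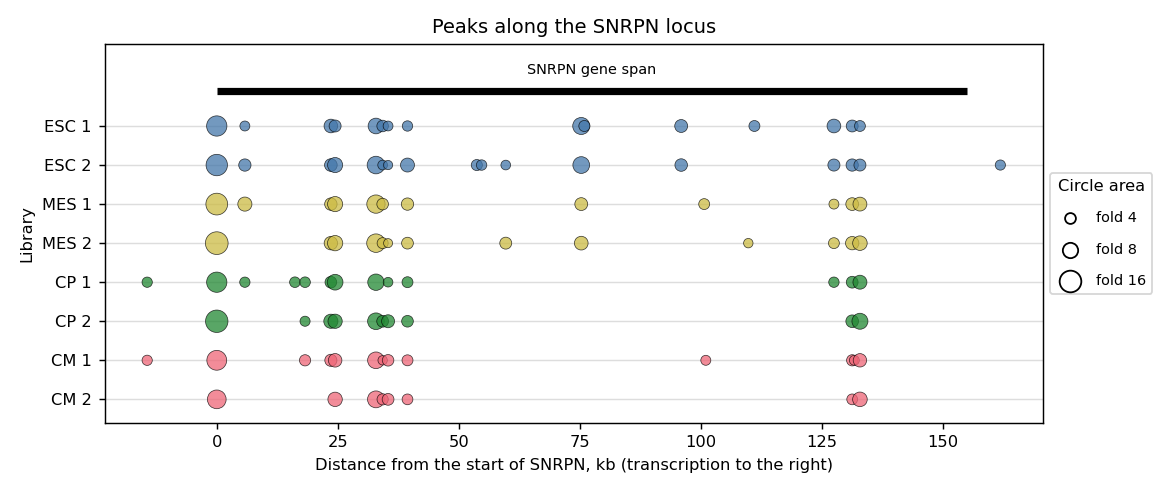
Peaks of each library (rows, coloured by stage) along the SNRPN locus, by the distance of the region's midpoint from the start of the gene in kb, with circle area in proportion to fold. The large circles at the start of the gene recur in every row, while SNRPN_15, about halfway along, is filled in the ESC and MES rows and empty in the CP and CM rows.

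The windows of these SNRPN regions are shown to set the region that was lost after MES beside the one that was higher after ESC. SNRPN_15 is chr15:24898820-24899019 and SNRPN_25 is chr15:24956644-24956843, GRCh38 plus strand. Capitals mark CCAAT letters, on either strand, in SNRPN_15, and no letters searched were found in SNRPN_25. GC content was 48.0% in the first and 62.5% in the second.
SNRPN_15: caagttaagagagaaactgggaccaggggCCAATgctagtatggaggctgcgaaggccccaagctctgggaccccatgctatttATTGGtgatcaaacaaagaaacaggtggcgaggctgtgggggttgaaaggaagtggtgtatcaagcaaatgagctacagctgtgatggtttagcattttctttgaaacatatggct
SNRPN_25: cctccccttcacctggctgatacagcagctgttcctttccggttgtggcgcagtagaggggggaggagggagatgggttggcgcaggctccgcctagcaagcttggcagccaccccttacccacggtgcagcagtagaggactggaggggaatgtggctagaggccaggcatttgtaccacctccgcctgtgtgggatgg

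GNAS, which codes for the stimulatory G protein alpha subunit, has several first exons with different parental use, and an antisense RNA, GNAS-AS1. Its widest region, GNAS_14 (chr20:58890305-58892709), covers annotated starts and a coding exon. Fold there was 3.77 and 3.84 at ESC, 4.00 and 4.23 at MES, 4.30 and 4.79 at CP, and 4.37 and 5.14 at CM, and both CM values were above both ESC values, before centring and after it. The centred log2 folds of ESC (1.92 and 1.91) and MES (1.95 and 1.90) overlapped. The intronic region GNAS_9 was in every library, at 4.50 to 7.55. GNAS_13 (chr20:58888558-58889404), at another start, had low folds throughout, 2.41 to 3.37. Its pileups, 38 to 87, were above the 17 to 41 of GNAS_9, so the low folds go with a higher local background. Near the GNAS-AS1 start, GNAS_6 had 3.16 to 6.22 and differed most within CM (3.16 and 6.22). GNAS_3, over the most upstream starts, was in 7 libraries (3.49 to 4.94), missing in ESC replicate 1. GNAS_4 counted for CP alone (3.05 and 5.00) with single peaks at the other stages, and GNAS_5 was in the ESC and MES libraries and CP replicate 1 (2.88 to 4.13). GNAS_7 was missing in CM replicate 2 only (3.12 to 5.17 in the others), and GNAS_17 had 1 peak, in ESC replicate 2 (3.92).

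GNAS_18 (chr20:58907796-58908145), over a coding exon towards the end of the gene and within 1 kb of an annotated start, was seen in CM alone. Its fold was 7.85 and 9.86, above every other GNAS region in those libraries, from pileups of 53 and 41. No other stage had a peak there, although their lists were longer, with 99889 to 156282 peaks.

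**Figure D3:**
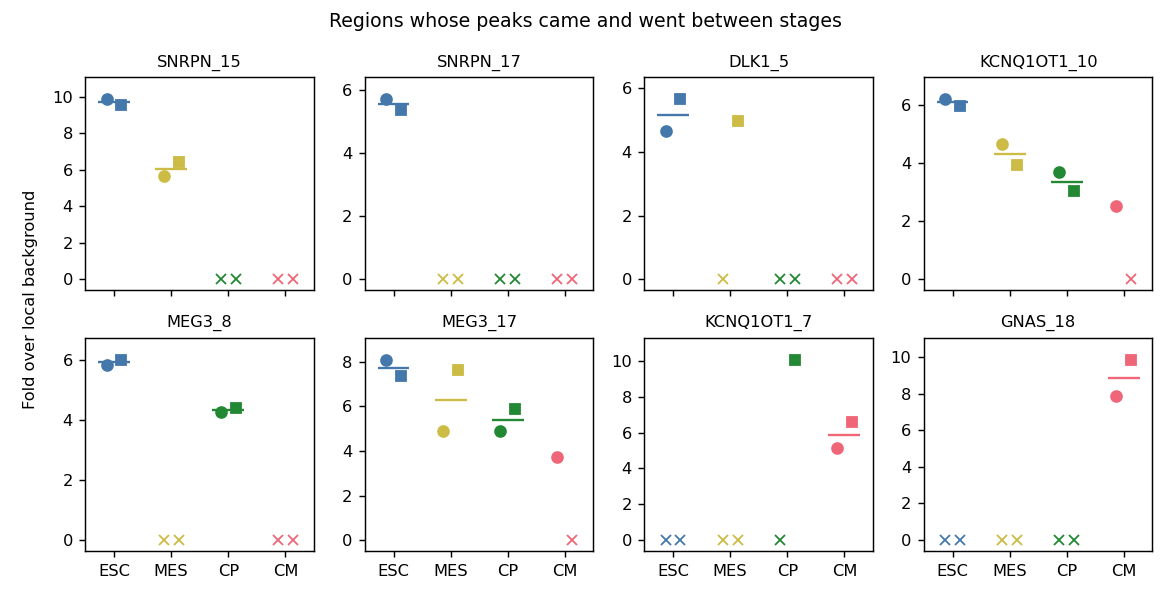
Fold over local background (vertical axes, from 0) in each library of 8 regions with peaks in some stages only (circle, replicate 1; square, replicate 2; line, mean where both libraries had a peak; cross at 0, no peak in that list). The first 6 panels show peaks that are lost or fall from ESC to CM, and the last 2 show KCNQ1OT1_7 and GNAS_18, which have peaks in both CM libraries and in no ESC or MES library.

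Change over the stages was tested at regions with a peak in all 8 libraries. Log2 fold was centred on the median of each library, fitted with limma over all 28115 such regions and adjusted by Benjamini-Hochberg over them. The F-test over the 4 stages called 1 of the 18 imprinted regions, SNRPN_25 (adjusted p = 0.0142), against a background of 9.33%, and 6 of the 18 had an unadjusted p under 0.05, against 28.7% of all regions tested. Without ESC replicate 1 the F-test adjusted p of SNRPN_25 was 0.124. Over all leave-one-out fits the number called ranged from 0 (without ESC replicate 1) to 3 (without CP replicate 1), and it was 2 without MES replicate 1 and without CP replicate 2. P-values measure the spread between the libraries, which the submitters call biological replicates.

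Between CM and ESC, 3 of the 18 regions were higher in CM (background 6.12%) and 1 was lower (background 5.75%). SNRPN_25 rose by 0.80 ± 0.15 on the log2 scale (SE, adjusted p = 0.00584), IGF2_8 by 0.62 ± 0.16 (adjusted p = 0.0312) and GNAS_14 by 0.54 ± 0.14 (adjusted p = 0.0303). DLK1_1 fell by 0.56 ± 0.14 (adjusted p = 0.0264). The median difference was 0.24 over the 18 regions and 0.098 over all tested. Without centring, no imprinted region was called higher and DLK1_1 was still called lower, and the split over all regions moved from 1721 higher and 1618 lower to 141 and 1728. The CM libraries had the lowest median log2 fold, 2.56 and 2.64 against 2.72 to 3.05 in the others.

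These calls also depended on single libraries. The adjusted p of SNRPN_25 was 0.0609 without ESC replicate 1 and stayed under 0.05 without any other library. That of IGF2_8 was 0.120 and 0.142 without ESC replicate 1 and 2, and 0.121 without CM replicate 2. For DLK1_1 it was 0.0952 and 0.141 without ESC replicate 1 and 2, and 0.113 and 0.126 without CM replicate 1 and 2. For GNAS_14 it was 0.125 and 0.149 without the ESC libraries, 0.0538 and 0.0515 without the MES libraries, and 0.0508 and 0.0958 without the CM libraries, in replicate order. The direction was kept in every one of these fits.

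**Figure D4:**
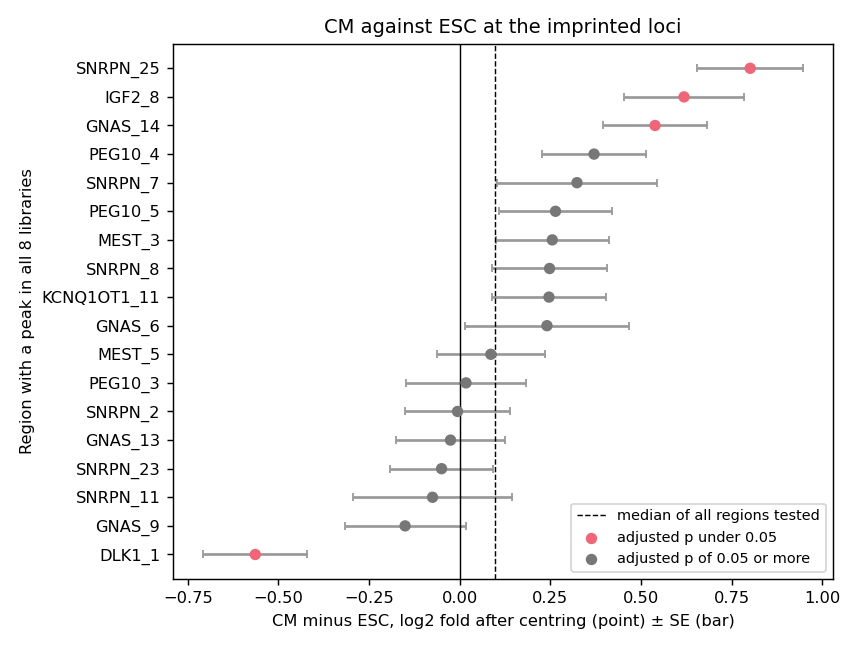
Difference between CM and ESC in centred log2 fold (horizontal axis; point, estimate; bar, SE from limma) at the 18 imprinted regions with a peak in all 8 libraries, sorted. SNRPN_25, IGF2_8 and GNAS_14 are called higher and DLK1_1 lower, and the dashed line is the median of all regions tested, 0.098.

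Single steps gave no call at the 18 regions, from MES against ESC (background 0.822%), CP against MES (background 0.377%) or CM against CP (background 1.54%), by limma at an adjusted p of 0.05. An unadjusted p under 0.05 was found at 1, 2 and 4 of the 18 regions in these steps, against 8.53%, 10.1% and 18.8% of all regions tested. The largest step of SNRPN_25 was from ESC to MES, 0.52 ± 0.15 (limma adjusted p = 0.178).

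The other promoter regions in all 8 libraries missed the threshold between CM and ESC. Their limma differences were 0.25 ± 0.16 at KCNQ1OT1_11 (adjusted p = 0.296), 0.26 ± 0.16 at MEST_3 (adjusted p = 0.277), 0.25 ± 0.16 at SNRPN_8 (adjusted p = 0.296), 0.02 ± 0.17 at PEG10_3 (adjusted p = 0.954), -0.01 ± 0.14 at SNRPN_2 (adjusted p = 0.982), -0.05 ± 0.14 at SNRPN_23 (adjusted p = 0.828), 0.09 ± 0.15 at MEST_5 (adjusted p = 0.714) and -0.03 ± 0.15 at GNAS_13 (adjusted p = 0.922). A difference of the size seen at GNAS_14 lay more than 2 SE from the estimate at the last 5.

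Sequence around the summits was compared with all regions as a description. The ZFP57 hexamer TGCCGC was in 10 of the 112 windows of 200 bases (8.93%, all regions 4.86%), and the CTCF core GGNGGCAG in 18 (16.1%, all regions 11.6%). Among regions in all 8 libraries the shares were 4 of 18 (22.2%) against 14.6% for ZFP57 and 6 of 18 (33.3%) against 15.7% for CTCF. The YY1 core GCCATNTT was in 2 windows (1.79%, all regions 2.80%). AGATAA, the letters bound by GATA factors, was searched after the values had been seen and was in 6 (5.36%, all regions 11.3%). CCAAT was in 26 (23.2%, all regions 22.4%). All searches covered both strands, and a match is no evidence of binding. Median GC content of the windows was 58.75% at the imprinted loci and 52.5% over all regions. Among regions in all 8 libraries it was 67% and 64%. The shares were not adjusted for GC content, and whether it accounts for their differences was not tested. The median ratio of observed to expected CpG was 0.298 at the imprinted loci and 0.192 over all regions, and among regions in all 8 libraries it was 0.515 and 0.656.

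Other imprinted genes, and a list of genes tied to imprints or DNA methylation, were read at their promoters. Of 33 other imprinted genes, 32 were found in the annotation, 31 had a promoter region and 24 had one in all 8 libraries. The 24 include SGCE, whose region is PEG10_3 and was already counted at the PEG10 locus. The limma F-test called none of the 24 (all regions 9.33%). MAGEL2, a gene of the Prader-Willi region, was higher in CM than in ESC by 0.62 ± 0.17 (adjusted p = 0.0349), and none was lower, where 6.12% and 5.75% of all regions were called higher and lower. The median difference was 0.14, against 0.098 over all regions. ZIM2, next to PEG3, had no promoter region. The list of 19 genes tied to imprints or DNA methylation included TET1, TET2 and TET3. Of the 19, 16 had a promoter region and 13 had one in all 8 libraries. TRIM28 was higher in CM by 0.48 ± 0.14 (limma adjusted p = 0.0467), none was lower, no F-test passed, with the same shares of all regions as background, and the median difference was 0.30, against 0.098. DPPA3, NLRP2 and NLRP7 had no promoter region. Whether the MAGEL2 and TRIM28 calls depend on centring or on single libraries was not examined.

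Promoters elsewhere that ran most alike were ranked by Pearson's r of centred log2 fold over the 8 libraries, among 14367 protein-coding genes. For IGF2_8 these were PANX1 (r = 0.993), RAD54L2 and MSRB1, for GNAS_14 STIP1 (r = 0.997), GPBP1L1 and TMEM69, and for MEST_3 MRO (r = 0.955), RPS4X and TET2. With 8 points that share their libraries and so many candidates, these values are a description.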

How the data were processed

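ATAC-seq was run on RUES2 cells at 4 stages with 2 libraries each. The authors aligned reads to hg38 with BWA-MEM (BWA 0.7.13 in the submitters' processing notes), kept primary alignments of high mapping quality, removed duplicates with Picard and called peaks per library with MACS2 2.1.0, without pooling and with a shift that centres on the cut site. The deposited lists give the fold ratio of pileup over local background, the −log10 p-value and the −log10 q-value of each peak, and a display score that was not used.

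Peaks on chromosomes 1 to 22 and X were merged where they overlapped or touched, with the peak of highest −log10 q standing for a library. Pileups were recovered from fold and −log10 p, within 0.001 for 100% of 859904 peaks. Gene spans came from GENCODE 44, starts also from RefSeq (5 of the 10 genes matched), and sequence from GRCh38. Coordinates of all 23 chromosomes lay within that build.

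Log2 fold at regions in all 8 libraries was fitted with limma 3.58.1 (R 4.3.3) on stage alone, with Benjamini-Hochberg adjustment over 28115 regions and a threshold of 0.05. The fit was tested on simulated data, and 500 of 500 planted motif sites were found. Alternatives covered the flank, lists cut to equal length (55777 peaks), a −log10 q of at least 5, centring, the measure, presence and single libraries.

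Named regions are each gene's promoter regions, up to 3 others with the highest mean −log10 q, those past the F-test and those of a single stage. IGF2_6, IGF2_15, MEG3_1, PEG10_2, MEST_1, MEST_2 and GNAS_10 also met the rule by −log10 q and were not described. Where another region was named, it was chosen after its values were seen. The members and lists were chosen with earlier results of these data known. Depth limits which peaks pass, and 2 libraries a stage limit the tests. Hi-C and RNA-seq were not used here, and 1 sequence window is not reported here.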

Additional observations from a re-analysis of the deposited data

How the results depend on the processing

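The number of imprinted regions was 112 and changed by more than 1.5 times only with lists of equal length, to 51. The 18 regions in all 8 libraries stayed within 1.5 times under all 12 alternatives. Single-stage regions, 15, became 24 with a 50 kb flank and 51 when either replicate sufficed, and ranged from 16 to 30 when 1 library was left out. The limma F-test called 1 region. It called 2 after quantile normalization, 0 on the recovered pileup and 3 where at least 1 library of every stage was required, and 0 to 3 without single libraries. Regions higher in CM than in ESC, 3, were 0 without centring and 0 to 3 without single libraries. Regions lower in CM, 1, were 2 on the recovered pileup and 0 to 1 without single libraries. For single regions, the CM against ESC call was lost for IGF2_8 after quantile normalization (adjusted p = 0.0640) and, with at least 1 library of every stage required, for IGF2_8, DLK1_1 and GNAS_14 (limma adjusted p = 0.0562, 0.0519 and 0.0587). Without centring, the adjusted p was 0.288 for IGF2_8, 0.0962 for SNRPN_25 and 0.266 for GNAS_14, and the F-test gave 0.0892 for SNRPN_25. The cause of these changes was not tested. No step between stages gained a call under any alternative.

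Deviations of same-numbered libraries from their stage means, taken after centring, correlated between -0.119 and 0.192. With 2 libraries a stage these values cannot tell whether libraries of the same number were handled together. A fit with the replicate number as a block (no pairing is stated) called 1 region in the F-test, 3 higher and 1 lower in CM, as without it. Short lists, CM replicate 2 above all, leave peaks out, and peaks with a low −log10 q are the least certain, whatever their fold.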
